A study of Homo sapiens with 4 samples.

Results

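Across the 4 libraries of the series 8 genes were followed: KIT and its ligand KITLG, the tuft cell kinase DCLK1, and 5 receptor chains for interleukins of type 2 immunity (IL17RB, IL17RA, IL4R, IL13RA1 and IL2RG). They were chosen by name, 8 of 35979 gene symbols, and each had 1 row in the deposited tables. Poly(A) RNA came from NCI-H1048, an established line of human small cell lung cancer, in a series whose title speaks of tuft cell-like disease. A non-targeting guide RNA (gRNA) was used in 1 library, called the control below, whose genotype is labelled wild type (WT). A POU2F3 gRNA was used in 1 library labelled as a POU2F3 knockout, and 2 libraries labelled as COLCA2 knockouts each had a different COLCA2 gRNA. No drug treatment is labelled. Whether the cells of a library were a clone or a pool is not given in the sources used here.

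KIT is a receptor tyrosine kinase. Its ligand, stem cell factor, is encoded by KITLG, and binding makes the receptor pair and signal through adaptor proteins, PI3 kinase and the RAS and ERK cascade. DCLK1 is a microtubule-binding kinase widely used as a tuft cell marker. Tuft cells are known both for making interleukin-25 (IL-25) and for carrying its receptor, a complex of IL17RB and IL17RA. IL4R pairs with IL2RG to bind interleukin-4, or with IL13RA1 to bind interleukin-4 and interleukin-13, and both complexes act through JAK kinases and STAT6.

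The libraries held between 21587741 and 29632382 reads assigned to genes. The targeted transcript POU2F3 had a normalized count of 14602 in the control, 3677 and 2351 with the COLCA2 guides and 1449 with POU2F3 gRNA. COLCA2 had 5585 in the control, 3119 and 3541 for COLCA2 guides 1 and 2, and 1393 with POU2F3 gRNA, so its lowest value was in a library that did not target it. Of 13 tuft markers other than POU2F3 and the genes above, 9 passed the expression minimum, set at 20 for the normalized count averaged over the 4 libraries. The summed normalized count of the 13 was 39396 in the control, 12967 and 10230 with the COLCA2 guides and 9300 with POU2F3 gRNA. SOX9 alone had 17848, 8463, 6645 and 7566 in the same order. At least 2-fold lower were 7 of the 9 with both COLCA2 guides (2.02% of all genes) and 9 with POU2F3 gRNA (3.05%). The median log2 ratios of the 9 to the control were -1.87 and -3.38. The part of these differences in the results below was not tested. Not every defining marker of a tuft cell was present: the taste channel gene TRPM5 had at most 2.35 and the prostaglandin synthase gene HPGDS at most 1.18 in any library. In such bulk RNA, fewer cells with a transcript and less transcript per cell cannot be told apart.

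Promoter stretches are shown because POU2F3 belongs to the factors that bind the octamer ATGCAAAT and because several of these genes were lower together. RefSeq windows (GRCh38.p14; 250 bases before to 50 after a start, 300 in all) were found for 7 of the 8 genes, in 9 windows. The octamer, searched on both strands, was in 1 of the 9, that of IL4R, and in 1.77% of 35116 windows of the same length. With N standing for any base, ATGCNAAT was in 2.97% of windows, and again only in that of IL4R among the 9. The octamer of IL4R lies at chr16:27313859-27313866 on the plus strand, at position -115 from the RefSeq start. GENCODE starts the gene further upstream, and the octamer lies between its annotated exons there, overlapping none. IL17RA had no window and was not searched. Among the 7 genes past the expression minimum, IL4R had the ratios nearest to 0, as described below. Any link between the octamer and the ratios was not tested. Below are stretches before the RefSeq start that overlap no exon of the gene in GENCODE release 29, with the octamer in capitals.
KIT, plus strand, chr4:54657838-54657917: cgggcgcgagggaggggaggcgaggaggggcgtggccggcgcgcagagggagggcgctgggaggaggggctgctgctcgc
IL17RB, plus strand, chr3:53846488-53846567: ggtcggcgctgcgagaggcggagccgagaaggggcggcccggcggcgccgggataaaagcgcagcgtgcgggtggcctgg
IL13RA1, plus strand, chrX:118727492-118727571: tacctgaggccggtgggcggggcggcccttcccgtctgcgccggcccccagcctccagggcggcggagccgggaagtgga
IL4R, plus strand, chr16:27313833-27313912: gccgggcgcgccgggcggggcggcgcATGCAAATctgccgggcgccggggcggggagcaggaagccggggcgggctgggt

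The windows of these 4 genes were rich in G and C, at 74.3% for KIT, 76.7% for IL17RB, 76.3% for IL13RA1 and 79.3% for IL4R, against a median of 58.7% over all windows. DCLK1 has 3 RefSeq start windows, at chr13:36131890-36132189, chr13:36131333-36131632 and, far downstream within the gene, chr13:35855618-35855917. Their G and C content was 54.3%, 69.0% and 50.7%. The deposited values are per gene, so transcripts from the separate DCLK1 starts cannot be told apart. A match, or none, in these windows says nothing about binding.

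Relative to the control, KIT and IL13RA1 stood between 48.8% and 56.7% in the 3 targeted libraries, DCLK1 stood below 50% with the COLCA2 guides and at 74.0% with POU2F3 gRNA, IL17RB and IL4R were lower by less, and KITLG and IL17RA had higher levels. The direction was the same in all 3 targeted libraries for each of these 7 genes, which all 3 compare with the same single control. At least 2-fold lower with both COLCA2 guides were 2 of the 7 genes past the expression minimum, KIT and DCLK1, and 2.02% of all 14940 genes. None of the 7 was at least 2-fold higher with both guides, where 5.79% of all genes were. With POU2F3 gRNA only KIT of the 7 was at least 2-fold lower (3.05% of all genes) and none at least 2-fold higher (6.73%). The same shares of all genes stand beside the 2-fold counts of the gene lists below. Over the 7 genes the median log2 ratio came to -0.54 with the COLCA2 guides and -0.43 with POU2F3 gRNA, beside -0.0087 and -0.0037 over all genes. Because the control and the POU2F3 group held 1 library each, these ratios, on the log2(normalized count + 1) scale, have no replicate check. The spread between the COLCA2 guides is the only error within a group.

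**Figure D1:**
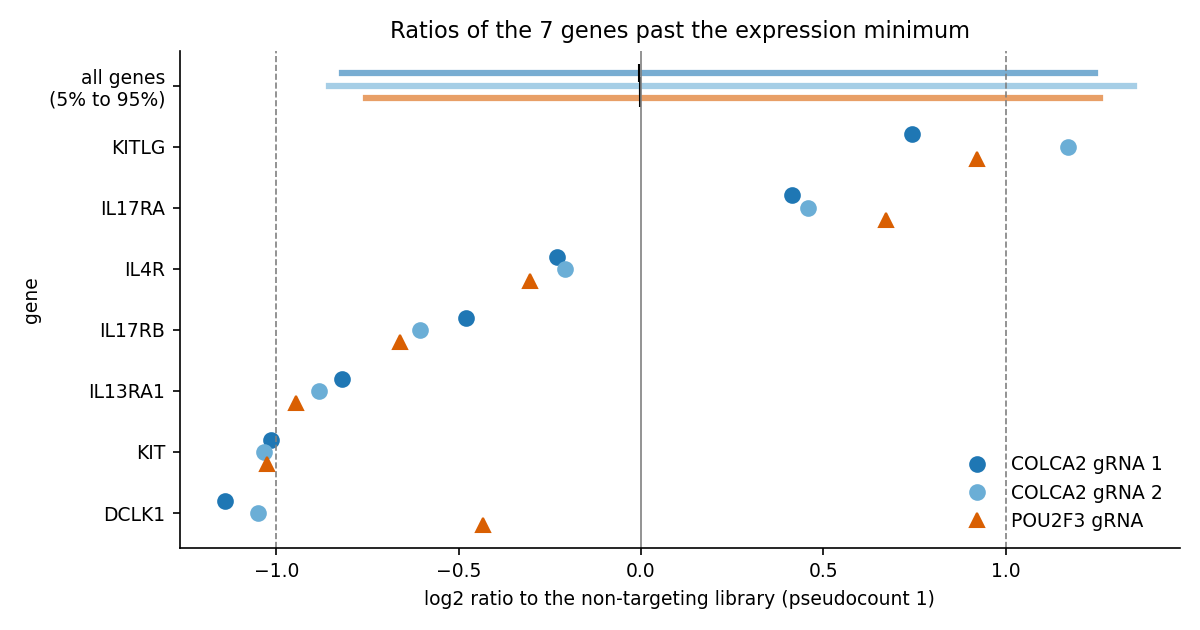
Log2 ratio to the non-targeting library (horizontal axis, pseudocount 1) for the 7 genes past the expression minimum, 1 point per targeted library, with bars from the 5th to the 95th percentile of all 14940 genes and ticks at their medians. KIT sits at the dashed 2-fold line in each library, DCLK1 passes it with the COLCA2 guides and not with POU2F3 gRNA, and KITLG and IL17RA lie to the right of 0.

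Count tests on the recovered reads gave a second view. Only the COLCA2 pair supplies a residual degree of freedom (1), with its different guides taken as replicates and set against the single control. For either target the tests therefore compare libraries and not conditions. By edgeR's quasi-likelihood test with Benjamini-Hochberg adjustment over all genes, KIT (adjusted p = 0.00062), IL13RA1 (0.001), DCLK1 (0.011) and IL17RB (0.015) were lower and KITLG (0.016) and IL17RA (0.038) higher with COLCA2 gRNA. The same test called 7.51% of all genes lower and 11.4% higher in that comparison. With POU2F3 gRNA, edgeR called KIT (adjusted p = 0.0018), IL13RA1 (0.0019) and IL17RB (0.018) lower and IL17RA (0.015) and KITLG (0.036) higher, where it called 3.98% of all genes lower and 8.45% higher. DCLK1 (adjusted p = 0.31 by edgeR) and IL4R (0.25) did not pass with POU2F3 gRNA, nor did IL4R (0.28) with COLCA2 gRNA. DESeq2 did not call DCLK1 (adjusted p = 0.062) or IL17RA (0.17) with COLCA2 gRNA and otherwise called the same members as edgeR. It called 4.18% of all genes lower and 8.33% higher for COLCA2, and 2.69% and 6.15% for POU2F3.

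KIT (ENSG00000157404) spans bases 54657918 to 54740715 of chromosome 4 (plus strand, GRCh38). The normalized counts were 3084 in the control, 1527 for COLCA2 guide 1, 1505 for COLCA2 guide 2 and 1515 for the POU2F3 guide. The 3 targeted libraries lay close together, and each was far below the control. KIT stood at 49.5% of the control level for COLCA2 guide 1, and the 95% exact Clopper-Pearson interval ran from 46.5% to 52.7%. The share was 48.8% (45.7% to 52.1%) for COLCA2 guide 2 and 49.1% (46.3% to 52.0%) for the POU2F3 guide. Each interval covers counting error only, and each includes 50%, so whether KIT lies inside or outside the 2-fold limit is not resolved at this depth. The mean log2 ratio with the COLCA2 guides was -1.02 ± 0.015 (SD, n = 2), and 2.86% of all genes had a lower mean. With POU2F3 gRNA the log2 ratio was -1.03, and 2.88% of genes were lower.

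KITLG (ENSG00000049130), on the minus strand of chromosome 12 at 88492793 to 88580851, went the other way from its receptor. Its normalized count was 469 in the control, 786 for COLCA2 guide 1, 1057 for COLCA2 guide 2 and 888 for the POU2F3 guide. All 3 targeted libraries were above the control, and the POU2F3 gRNA library fell between the COLCA2 guides. The mean log2 ratio with the COLCA2 guides was 0.96 ± 0.30 (SD, n = 2), the widest spread between guides among the 7 genes. The guides stood on both sides of the 2-fold limit, at log2 ratios of 0.74 and 1.17, and the value with POU2F3 gRNA was 0.92.

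**Figure D2:**
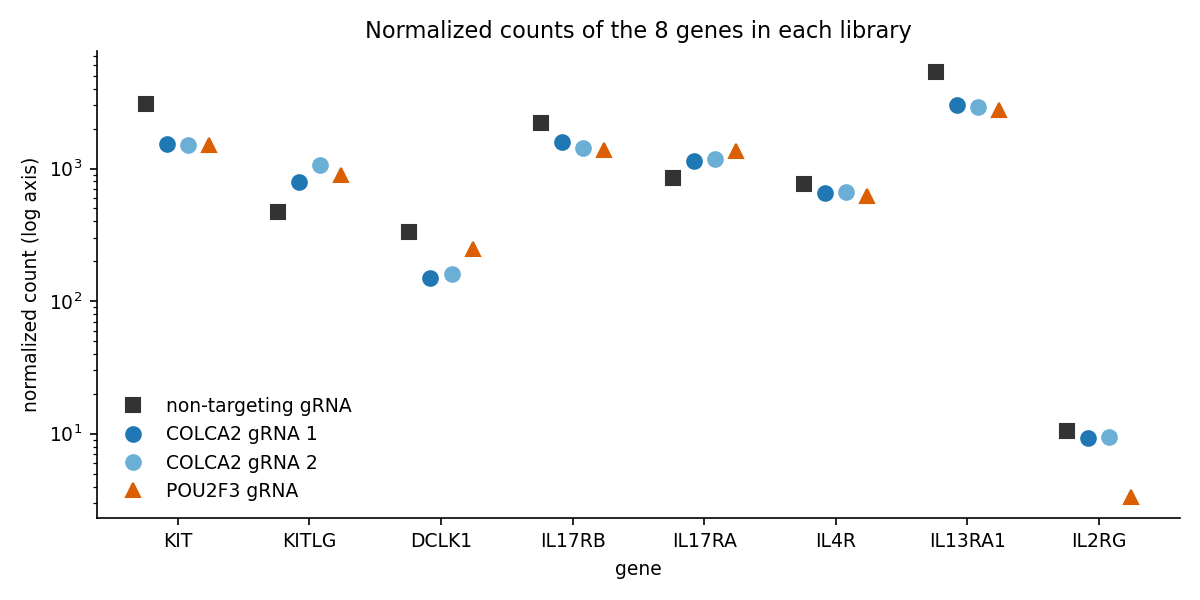
Normalized count (vertical log axis) of the 8 genes in each library, 1 symbol per library. For KIT, IL17RB, IL4R and IL13RA1 the 3 targeted libraries cluster below the control, for KITLG and IL17RA they lie above it, and IL2RG sits near the lower end in all 4 libraries.

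Of 11 other class III receptor kinases and their ligands, the class to which KIT belongs, 9 passed the minimum. At least 2-fold higher with both COLCA2 guides were 5 of the 9, and 6 were higher with POU2F3 gRNA. None was at least 2-fold lower, and the 9 had a median log2 ratio of 1.22 with the COLCA2 guides and 1.62 with POU2F3 gRNA. Of the 5, 4 were ligand genes. The other was the receptor gene PDGFRB, with a normalized count of 22.9 in the control, 187 and 120 with the COLCA2 guides and 79.7 with POU2F3 gRNA. CSF1, the ligand of the macrophage receptor CSF1R, had 247 in the control and 1026, 1049 and 845. The PDGF ligand genes PDGFB, PDGFC and PDGFD averaged log2 ratios of 2.00 ± 0.051, 1.22 ± 0.12 and 2.08 ± 0.27 over the COLCA2 guides (SD, n = 2). Their POU2F3 gRNA values were 2.11, 1.62 and 2.02.

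Most genes whose products act below KIT stayed within 2-fold, as did most of all 14940 genes. Of 32 adaptors, kinases, phosphatases and feedback genes, 31 passed the minimum. With both COLCA2 guides 2 were at least 2-fold lower (2.02% of all genes) and none higher (5.79%), and the list had a median log2 ratio of -0.040. With POU2F3 gRNA 1 was lower (3.05% of all genes) and 2 were higher (6.73%), with a median of 0.023. The lower genes were ETV4 and DUSP6. ETV4, an ETS transcription factor induced by ERK signalling, had a normalized count of 1689 in the control, 548 and 400 with the COLCA2 guides and 262 with POU2F3 gRNA. DUSP6, a phosphatase that switches ERK off and is itself induced by ERK, had 482, 217, 207 and 273 in the same order, a log2 ratio of -0.82 with POU2F3 gRNA. Other ERK feedback and target genes of the list, named after their values were seen, were mixed in direction over the COLCA2 pair. The mean log2 ratio was 0.70 ± 0.21 for SPRY2, 0.77 ± 0.12 for SPRY4 and 0.19 ± 0.012 for ETV5 (SD, n = 2), and their POU2F3 gRNA values were 0.70, 0.38 and -0.29. SPRED2 was lower, at -0.42 ± 0.023, and SPRED1 was at -0.044 ± 0.10 (SD, n = 2). Their POU2F3 gRNA values were -0.51 and 0.030. PIK3R1, a regulatory subunit of PI3 kinase, and LYN, a SRC family kinase, were those at least 2-fold higher with POU2F3 gRNA, where their log2 ratios reached 1.30 and 1.25. Over the COLCA2 guides the mean ratios were 0.76 ± 0.19 and 0.95 ± 0.056 (SD, n = 2).

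DCLK1 (ENSG00000133083) spans bases 35768652 to 36131306 of chromosome 13 (minus strand). The normalized counts were 332 in the control, 150 for COLCA2 guide 1, 160 for COLCA2 guide 2 and 246 for the POU2F3 guide. The POU2F3 gRNA library thus lay between the COLCA2 libraries and the control. DCLK1 stood at 45.2% (37.0% to 55.1%) and 48.1% (39.2% to 58.8%) of the control with the COLCA2 guides, and at 74.0% (63.1% to 86.7%) with POU2F3 gRNA, with exact intervals for counting error. Both intervals with the COLCA2 guides include 50%.

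Among the 7 genes DCLK1 had the largest difference when POU2F3 gRNA was set directly against COLCA2 gRNA, which leaves the control out. It was at 159% (134% to 188%) of the pooled COLCA2 reads, a log2 difference of 0.71 from guide 1 and 0.62 from guide 2, while the guides differed from each other by 0.089. The difference was below 2-fold, 97.1% of all genes had a lower one, and it did not pass edgeR's test (adjusted p = 0.24) or that of DESeq2 (adjusted p = 1). None of the 7 genes was at least 2-fold apart from both guides, against 0.924% of all genes lower and 0.442% higher. The edgeR test called no member in this comparison, with 0.234% of all genes lower and 0.107% higher (2038 genes had an unadjusted p under 0.05), and DESeq2 called none, with 0.622% and 0.335% of all genes. KIT stood at 99.9% (94.1% to 106%) of the pooled COLCA2 reads, KITLG at 97.3% (90.0% to 105%), IL4R at 94.3% (85.9% to 103%), IL13RA1 at 93.5% (89.5% to 97.6%), IL17RB at 91.9% (86.4% to 97.7%) and IL17RA at 118% (110% to 126%). For the 9 tuft markers past the minimum, the targeted POU2F3 left out, the median log2 difference was -1.16 in this comparison, opposite in sign to that of DCLK1 (0.66 from the mean of the guides). Whether DCLK1 differs from them was not tested.

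Of 7 other genes with doublecortin domains, which bind microtubules, 5 passed the minimum, and 2 of the 5 were at least 2-fold lower with both COLCA2 guides and with POU2F3 gRNA. DCLK2, the closest relative of DCLK1, had a normalized count of 2094 in the control, 1026 and 901 with the COLCA2 guides and 818 with POU2F3 gRNA. Unlike DCLK1, DCLK2 was lowest with POU2F3 gRNA. The other was DCLK3, named after its values were seen, with 36.3 in the control and 17.6, 12.9 and 13.4. For COLCA2 guide 1 DCLK3 lay at the 2-fold limit, and the count for the COLCA2 guides became 1 with TMM scaling, a pseudocount of 10 or a minimum of 100. For the POU2F3 guide it became 1 with that pseudocount or that minimum. DCX, the neuronal founder of the family, had at most 12.4 in any library and did not pass the minimum.

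IL17RB (ENSG00000056736), the chain that binds IL-25, spans bases 53846580 to 53865800 of chromosome 3 (plus strand). The normalized counts were 2193 in the control, 1574 for COLCA2 guide 1, 1441 for COLCA2 guide 2 and 1388 for the POU2F3 guide. The targeted libraries lay near each other and below the control. The mean log2 ratio was -0.54 ± 0.090 over the COLCA2 guides (SD, n = 2), and -0.66 with POU2F3 gRNA, and 10.3% and 6.44% of all genes had lower ratios.

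IL17RA (ENSG00000177663), the shared signalling chain of the IL-17 receptors, spans bases 17084954 to 17115694 of chromosome 22 (plus strand). It had a normalized count of 854 in the control, 1138 for COLCA2 guide 1, 1173 for COLCA2 guide 2 and 1361 for the POU2F3 guide. Every targeted library was above the control. The mean log2 ratio was 0.44 ± 0.030 over the COLCA2 guides (SD, n = 2), and 0.67 with POU2F3 gRNA. The chains of the IL-25 receptor therefore had ratios of opposite sign.

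Of the IL-17 cytokines, IL17D passed the minimum, with a normalized count of 186 in the control, 145 and 160 with the COLCA2 guides and 154 with POU2F3 gRNA. The others were scarce. IL25 itself had 2 reads for COLCA2 guide 1 and was at 0 in the other libraries, where 3 reads is the level a count of 0 allows, and IL17A and IL17F were at 0 in all 4. Of 9 further IL-17 receptors and ligands 4 passed the minimum, and none was 2-fold apart in either comparison. Of 12 genes that act below the IL-17 receptors all passed, 3 were at least 2-fold higher with both COLCA2 guides and 4 with POU2F3 gRNA, and none was lower. TNFAIP3, a ubiquitin-editing inhibitor of NF-κB, had a normalized count of 375 in the control, 1716 and 1799 with the COLCA2 guides and 1627 with POU2F3 gRNA. NFKBIZ, a nuclear partner of NF-κB, had 230, 881, 876 and 836 in the same order, and ZC3H12A, an RNase that degrades cytokine messages, had 132, 547, 515 and 409. TRAF3IP2, the adaptor Act1 that joins the receptor to TRAF6, had 482 in the control, 833 and 1062 with the COLCA2 guides and 1010 with POU2F3 gRNA. These genes also respond to other signals.

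IL13RA1 (ENSG00000131724) spans bases 118727572 to 118794539 of chromosome X (plus strand). The normalized counts were 5347 in the control, 3031 for COLCA2 guide 1, 2899 for COLCA2 guide 2 and 2776 for the POU2F3 guide. The 3 targeted libraries lay near each other, far below the control. IL13RA1 stood at 56.7% (54.2% to 59.3%) and 54.2% (51.7% to 56.9%) of the control with the COLCA2 guides and at 51.9% (49.7% to 54.2%) with POU2F3 gRNA. The mean log2 ratio was -0.85 ± 0.046 over the COLCA2 guides (SD, n = 2), and -0.95 with POU2F3 gRNA. The interval with POU2F3 gRNA includes 50%, so whether IL13RA1 reaches the 2-fold limit there is not resolved at this depth.

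IL4R (ENSG00000077238) spans bases 27313668 to 27364778 of chromosome 16 (plus strand) and had a normalized count of 766 in the control, 653 for COLCA2 guide 1, 663 for COLCA2 guide 2 and 620 for the POU2F3 guide. All targeted libraries were below the control, by less than for the other lower genes. Its mean log2 ratio was -0.22 ± 0.016 over the COLCA2 guides (SD, n = 2), and -0.30 with POU2F3 gRNA, where 28.1% and 19.1% of all genes were lower.

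IL2RG (ENSG00000147168), the common gamma chain of lymphocyte cytokine receptors, spans bases 71107404 to 71112108 of chromosome X (minus strand) and was at the edge of detection. It had 11 reads in the control, 9 for COLCA2 guide 1, 8 for COLCA2 guide 2 and 4 for the POU2F3 guide, and did not pass the expression minimum. With POU2F3 gRNA it stood at 32.0% of the control, with a counting interval of 7.42% to 108%, so no difference was detectable at this depth. It also shares 50.8% of its exon bases with the annotated gene AL590764.2, and its count is uncertain to that extent. Antisense genes share up to 5.75% of the exon bases of KITLG, IL17RB and IL4R, and use of the strand in counting is not given in the sources used here.

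Partners and ligands of these chains were mostly near 0. Of 11 genes that pair with or bind IL2RG complexes 5 passed the minimum, and of 11 other receptors and ligands of type 2 immunity 2 did. None of those past the minimum was 2-fold apart with both COLCA2 guides. With POU2F3 gRNA 1 gene of each was lower, IL7 and TSLP, as were 3.05% of all genes. These were named after their values were seen, with normalized counts of 96.4 and 58.3 in the control and 36.9 and 23.5 with POU2F3 gRNA. For COLCA2 guides 1 and 2 the log2 ratios were -1.13 and -0.47 for IL7 and -1.45 and -0.71 for TSLP. Neither gene reached 100 in any library, so a minimum of 100 leaves out both, and the count of the list holding IL7 became 0. IL4 had at most 1.91 and IL13 between 9.23 and 14.1. IL13RA2, the decoy receptor for interleukin-13, had 27.7 in the control and 10.4, 8.23 and 17.6 for COLCA2 guide 1, COLCA2 guide 2 and the POU2F3 guide, and did not pass the minimum.

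Of 22 JAK, STAT, SOCS and related genes, 21 passed the minimum. With both COLCA2 guides 3 were at least 2-fold higher and 1 lower, and the same counts held with POU2F3 gRNA. The higher genes included IRS2, an adaptor of the insulin and interleukin-4 receptors, with a normalized count of 565 in the control, 3144 and 3708 with the COLCA2 guides and 2820 with POU2F3 gRNA. STAT3 had 2104 in the control and 4351, 4877 and 4541, and its feedback inhibitor SOCS3 had 235, 620, 715 and 673. The lower gene was SOCS2, an inhibitor of growth hormone and STAT5 signalling, with 286, 142, 118 and 56.2. For COLCA2 guide 1 it lay at the 2-fold limit, and the count of 1 lower gene with the COLCA2 guides became 0 with TMM scaling, a pseudocount of 10 or the DESeq2 test. STAT6, the factor that interleukin-4 and interleukin-13 act through, was named after its values were seen. It had 116 in the control and 97.5, 81.1 and 90.6, with log2 ratios of -0.24 and -0.50 for COLCA2 guides 1 and 2 and -0.35 with POU2F3 gRNA.

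**Figure D3:**
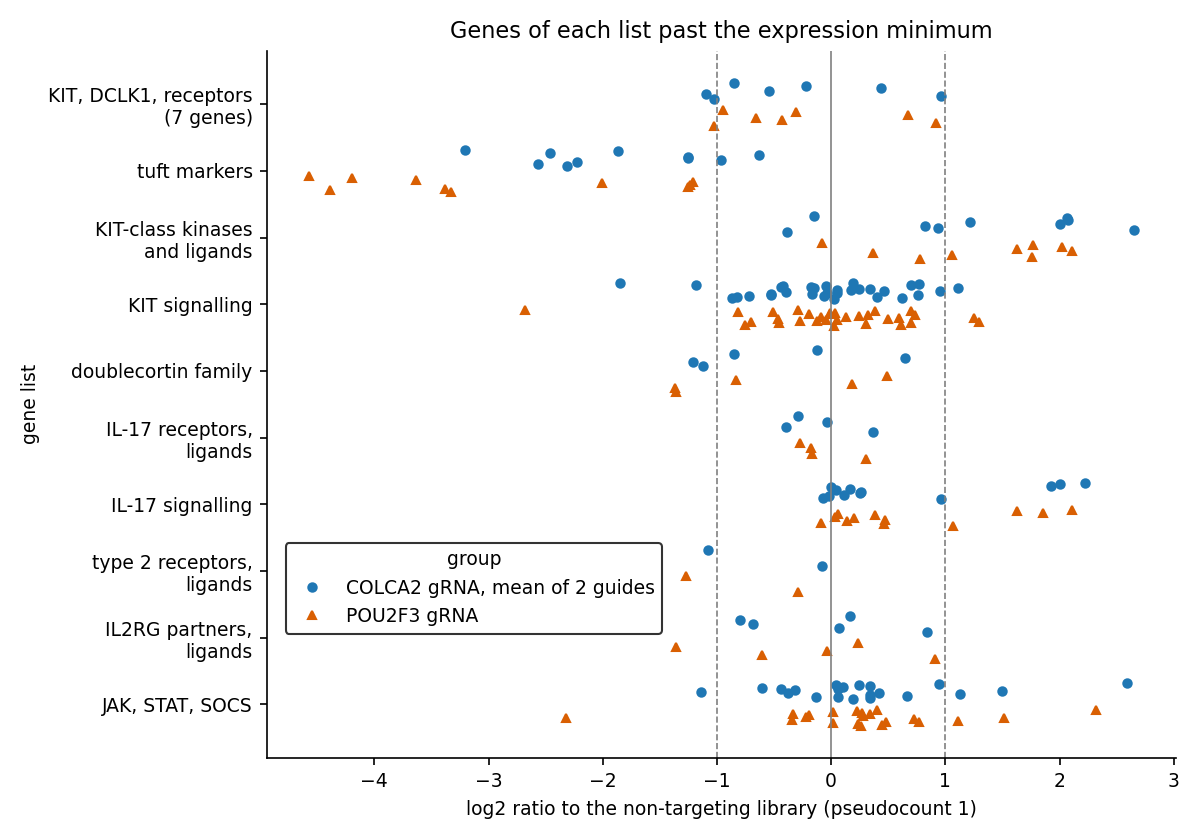
Log2 ratio to the non-targeting library (horizontal axis, pseudocount 1) of the genes of each list that passed the expression minimum, as the mean of the COLCA2 guides and as the POU2F3 gRNA value, with dashed lines at 2-fold. The tuft markers include the targeted POU2F3. The 7 genes with KIT and DCLK1 lie between -1.09 and 0.96, while the KIT-class kinases and ligands reach 2.65.

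To compare levels between genes, normalized counts were divided by the length of the longest annotated transcript and scaled to the same sum in each library, as in TPM. In the non-targeting library IL13RA1 was the most abundant of the 8 at 147 TPM, followed by IL17RB at 86.5, KIT at 66.2, IL4R at 23.1, IL17RA at 11.0, KITLG at 9.09, DCLK1 at 4.62 and IL2RG at 0.574. The counting intervals of IL17RA (10.3 to 11.8) and KITLG (8.30 to 9.93), the closest neighbours, did not overlap. The order depends on the length used: with the median transcript length it ran IL13RA1, KIT, IL4R, IL17RB, IL17RA, KITLG, DCLK1 and IL2RG. DCLK1 was above only IL2RG on either length.

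For 3 of 4 pairs of partners the per-length levels were closer together in every targeted library than in the control. The per-length level of KIT was 7.28 times that of KITLG in the control and 2.15, 1.58 and 1.89 times for COLCA2 guide 1, COLCA2 guide 2 and the POU2F3 guide. IL17RB stood at 7.84 times IL17RA in the control and at 4.22, 3.75 and 3.11 times. IL13RA1 stood at 6.37 times IL4R in the control and at 4.24, 3.99 and 4.09 times. The pair of IL4R and IL2RG was the exception, at 40.3 times in the control and 38.7, 38.9 and 102 times, values that rest on the 4 to 11 reads of IL2RG. A change of length moves all 4 values of a pair by the same factor. Set against the control, these ratios restate the differences between the log2 ratios of the partners given above, and are no separate result. They use the single control library and were not tested.

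**Figure D4:**
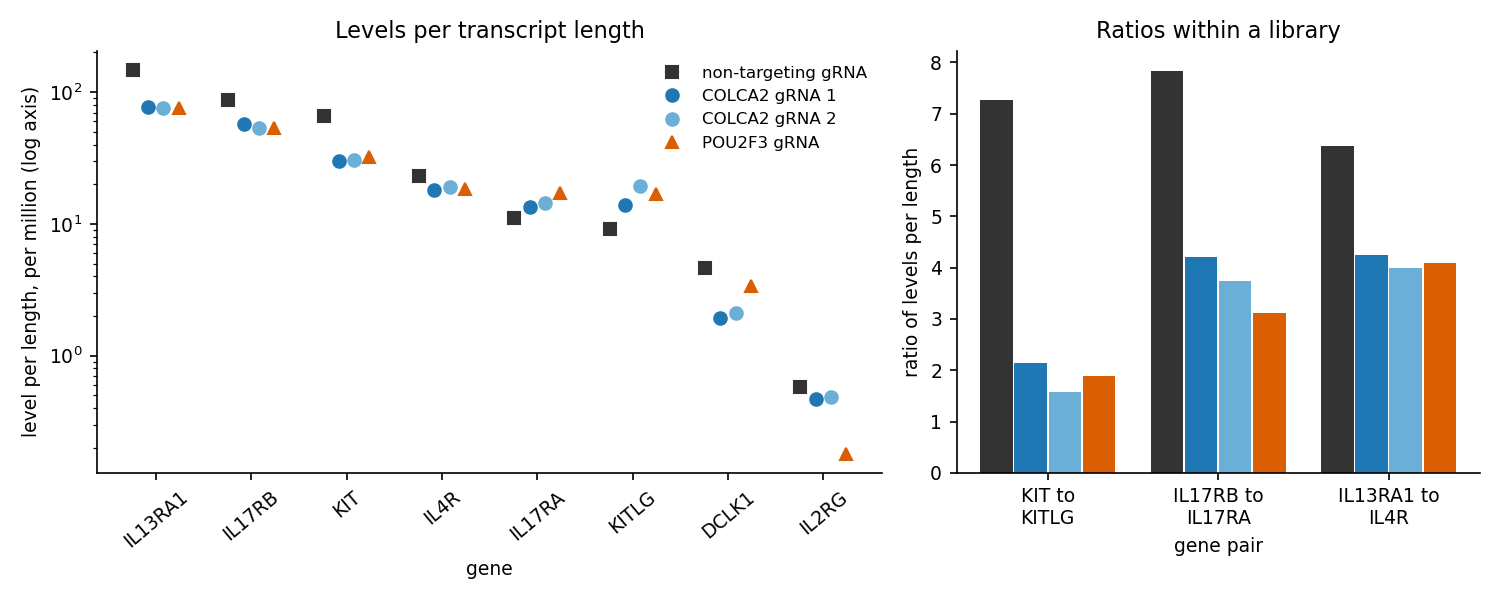
Left, level per length (vertical log axis, TPM) of the 8 genes in each library; right, ratios of the per-length levels of 3 pairs within each library, as bars from 0. The control has the highest ratio of each pair, at 7.28, 7.84 and 6.37.

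Among markers of other cells that carry KIT or these receptors, those of mast cells and leukocytes were low, and those of melanocytes and interstitial cells were mixed. Of 12 mast cell and leukocyte markers only LYZ passed the minimum, TPSAB1, CPA3 and CD3E were at 0 in all 4 libraries, and the summed normalized count of the 12 ranged from 96.4 to 112 in the targeted libraries, beside 125 in the control. The leukocyte gene PTPRC had 16.2 in the control and between 8.29 and 9.41 in the targeted libraries. Of 6 markers of melanocytes and interstitial cells of Cajal 4 passed the minimum, and their sum ranged from 453 to 478 in the targeted libraries, beside 422 in the control. ANO1, the marker of interstitial cells, was at least 2-fold higher with both COLCA2 guides, with 13.4 in the control, 42.5 and 37.6 with those guides and 26.0 with POU2F3 gRNA. Within that list TYR had at most 1.04 and MITF, the melanocyte regulator, between 286 and 351. The part of these markers in the KIT and receptor values was not tested.

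Genes with the most similar pattern were sought by the largest difference in log2 ratio over the 3 targeted libraries, among the 12159 genes averaging 100 or more normalized counts. The nearest to KIT were KBTBD11, KISS1R and NAP1L5, within 0.044, 0.085 and 0.10. The nearest to DCLK1 were PRLR, RAPGEF5 and SCD, within 0.075, 0.12 and 0.13. The nearest to IL17RB were IGFBPL1, TEX30 and HPCAL1, within 0.029, 0.030 and 0.036. Within 0.1 of IL17RB lay 48 genes, against 2 for KIT and 1 for DCLK1. With 3 ratios that share a control, this is only a description.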

How the data were processed

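RNA sequencing of 4 libraries in 3 groups was used. The deposited signal is, per the file headers, a linear normalized count for each gene. The submitters' processing notes name Salmon, DESeq2 and hg38, with no roles. In each library 100% of values were whole multiples of 1 step (tolerance 1e-06), so reads were recovered by division; with Salmon these may be rounded estimates. Rows of 1 symbol were summed, 14940 genes with a mean of at least 20 were kept, and ratios used a pseudocount of 1 and a 2-fold limit. Count tests used edgeR 4.0.16 and DESeq2 1.42.0 (R 4.3.3) with 3 groups and an adjusted p of 0.05. Positions and lengths are from GENCODE release 29, with lengths for 89.7% of rows; promoters are from RefSeq (GRCh38.p14). Intervals are exact 95% intervals and cover counting error only. The scripts were tested on simulated data. The members and gene lists were chosen with earlier results of these data known. Named list genes reach 100 in the higher library and are 2-fold apart, and other list genes were named after their values were seen. Nothing says that libraries are separate cultures, so the spread may be technical. Alternatives were other scalings, pseudocounts, limits, minimums, rows and lengths, and each guide left out.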

Additional observations from a re-analysis of the deposited data

How the results depend on the processing

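No paired analysis was possible because only the number 1 recurs between groups. Under the alternatives 16 counts of members differed by over 1.5 times and 64 did not, against 131 and 989 counts of lists and of all genes. Of the member ratios 22 moved and 196 did not. No ratio of the 7 genes to the control changed sign under any alternative run. A 1.5-fold limit gave 3 lower (KIT, DCLK1, IL13RA1, with 6.03% of all genes) and 1 higher (KITLG, with 9.71%) for COLCA2 gRNA. For POU2F3 gRNA it gave 3 lower (KIT, IL17RB, IL13RA1, with 7.69%) and 2 higher (KITLG, IL17RA, with 12.2%). With POU2F3 gRNA set against COLCA2 gRNA it gave 1 higher (DCLK1, with 1.92%). A 4-fold limit gave 0 lower with either target, where 0.295% of all genes were lower with COLCA2 gRNA and 0.756% with POU2F3 gRNA. Without a minimum, IL2RG entered, giving 2 lower with POU2F3 gRNA (6.72% of all genes) and 1 lower against COLCA2 gRNA (3.24%), from 4 reads. The members called by edgeR and DESeq2 were those given with the count tests above, more than at the 2-fold limit with either target. Leaving out a COLCA2 guide gave between 0 and 1 higher with COLCA2 gRNA, the 1 being KITLG without guide 1. The 3 scalings changed no member count and moved the median of all genes to -0.077 with COLCA2 gRNA when totals were made equal, with smaller shifts otherwise. The share of higher calls in the direct comparison was 32.4% and became 26.2% with a pseudocount of 10, 15.1% with a minimum of 100, 50.7% with none, 43.3% without COLCA2 guide 1 and 49.8% without guide 2. With the median transcript length the control levels in TPM were 59.4 for KIT, 5.05 for KITLG, 2.74 for DCLK1, 44.3 for IL17RB, 7.57 for IL17RA, 53.7 for IL4R and 198 for IL13RA1. The single control could not be left out.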

Other observations

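Of 6 epithelial markers, all passed the minimum, and 4 were at least 2-fold higher with both COLCA2 guides and with POU2F3 gRNA. KRT8, a keratin of simple epithelia, had a normalized count of 2530 in the control, 13262 and 14980 for COLCA2 guides 1 and 2 and 10023 with POU2F3 gRNA. CDH1, which encodes the adhesion protein E-cadherin, had 747 in the control and 2351, 2537 and 2126. The others were KRT18 and KRT19. EPCAM and KRT7 were not among them: the log2 ratio of EPCAM was -0.44 for COLCA2 guide 1, -0.23 for guide 2 and -0.69 for the POU2F3 guide.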
